A study of Arabidopsis thaliana with 9 samples.

Results

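The genes described here are the 129 Arabidopsis thaliana genes whose mean expression in leaves was at least 4 times the wild-type mean in each of 2 atxr5 atxr6 mutants. They were chosen from 27655 genes by their mean TPM (a level scaled by gene length and by library total). A gene was taken when its mean was above 0 in wild type, at least 1 TPM in each mutant, and at least 4-fold over wild type in each mutant. Of 17466 genes with a wild-type mean above 0 and at least 1 TPM in both mutants, 142 (0.813%) met the fold rule, and 13 of these were among 16 loci left out by name. The differences from wild type chose the genes, so they are given below as a description, with no test, and the comparison between the mutants is tested.

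RNA was sequenced from leaves of 3-week-old plants grown at 22 °C in 16 h light and 8 h dark, with 3 libraries per genotype. The first mutant, hyp/c-1, is labelled atxr5;atxr5;atxr6hyp;atxr6c-1, that is, homozygous for an atxr5 allele with 1 atxr6hyp and 1 atxr6c-1 allele. The second, hyp/hyp, is labelled atxr5;atxr5;atxr6hyp;atxr6hyp, and shares the homozygous atxr5 allele. Wild type (WT) is the accession Col, and the study asked what underlies the additional abnormal development of hyp/c-1 plants. The labels do not say whether libraries of a genotype came from separate plants, so p-values measure the spread between these libraries, which may be technical.

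ATXR5 and ATXR6 are plant histone methyltransferases that place a single methyl group on lysine 27 of histone H3, a mark of silent chromatin. Plants that lose both are known for extra replication of heterochromatic DNA, for transcripts from elements that are silent in wild type, and for a DNA damage response. In plants that response runs through SOG1, a NAC transcription factor that binds sites with the letters CTT and AAG, 7 bases apart. DNA methylation, small RNAs and histone deacetylation are further layers of silencing in the same chromatin.

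The deposited values allowed the reads behind them to be recovered, 21289647 to 38766556 per library, and 3 reads in a gene of 2000 bp correspond to 0.0825 to 0.149 TPM. These floors, and the intervals below, account for counting error alone: without molecular identifiers, several reads can stem from 1 molecule. ATXR5 had 68, 52 and 50 reads in hyp/c-1, 64, 44 and 44 in hyp/hyp, and 151, 145 and 132 in WT. ATXR6 had 1, 0 and 2 reads in hyp/c-1, 0, 2 and 3 in hyp/hyp, and 40, 41 and 41 in WT, which separates the mutants from WT but not hyp/c-1 from hyp/hyp. The labels do not say what the hyp and c-1 alleles change. Summed TPM of 4 leaf photosynthesis genes, RBCS1A among them, was 21160 to 30310 in hyp/c-1, 16670 to 20940 in hyp/hyp and 25230 to 26970 in WT. Each list of flower, seed, root, pollen and shoot meristem markers summed to at most 4.19 TPM in any library. Within that bound, shoot meristem markers summed to 0.286 to 0.814 TPM in hyp/c-1, 0.425 to 0.697 TPM in hyp/hyp and 0.0313 to 0.152 TPM in WT. Most of the higher mutant sum came from 1 gene, KNAT1, with means of 0.447 TPM in hyp/c-1, 0.438 TPM in hyp/hyp and 0.00688 TPM in WT. CUC2 averaged 0.113 TPM in hyp/c-1, 0.0617 TPM in hyp/hyp and 0.0603 TPM in WT. STM had 0 reads in hyp/c-1, 3 in hyp/hyp and 3 in WT. The meristem markers WUS and CLV3, which define the meristem's stem cell region, were at 0 in all 9 libraries. Guard cell and trichome markers summed to 40.4 to 49.1 TPM in hyp/c-1, 48.1 to 53.1 TPM in hyp/hyp and 46.9 to 54.1 TPM in WT. In whole leaves, fewer cells of a type and less RNA per cell cannot be told apart.

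Across the 129 genes the median of the genotype means was 4.94 TPM in hyp/c-1, 4.62 TPM in hyp/hyp and 0.468 TPM in WT. The lower of the 2 folds over WT, called the lower fold, had a median of 6.79 and ran from 4.04 to 681, the upper end resting on 1 WT read. It was at least 8 in 53 genes, at least 16 in 29 and at least 100 in 11. In all 129 genes each of the 6 mutant libraries lay above each of the 3 WT libraries, and in 77 the lowest mutant library was at least 4 times the highest WT library. The fold rule chose the genes on these same values, so these counts describe the choice and are not independent evidence. WT levels were often near detection: 14 genes had 3 or fewer reads over the 3 WT libraries together, 32 had 10 or fewer, and 48 had at least 100. For the genes described below with 1 to 3 WT reads the ratio of pooled reads is given, with its exact 95% interval, since a fold over so few reads is imprecise.

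**Figure D1:**
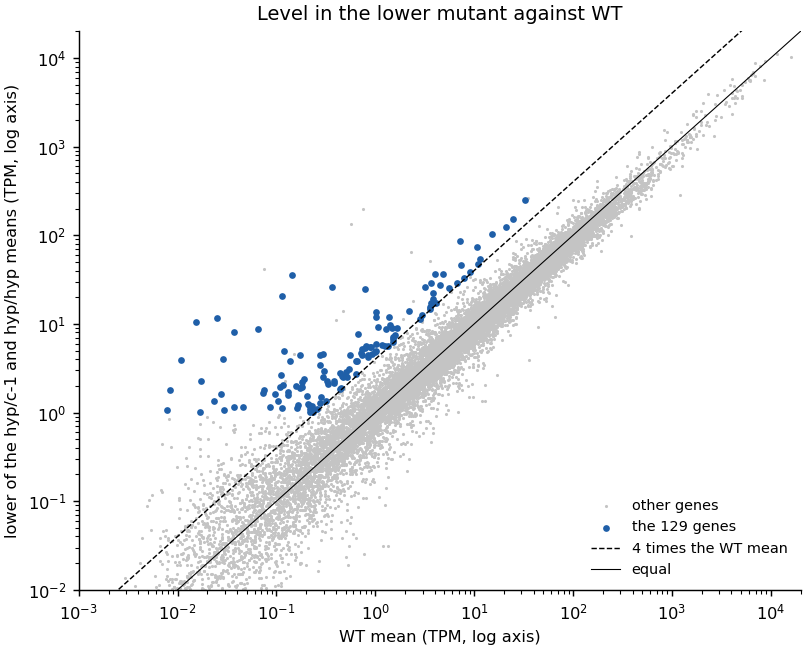
Mean TPM in WT (horizontal, log axis) against the lower of the hyp/c-1 and hyp/hyp means (vertical, log axis) for each gene with both above 0 and inside the axes. The 129 genes are blue, other genes grey, the dashed line marks 4 times the WT mean and the solid line equality; the blue points lie on or above the dashed line at mutant means of 1 TPM or more, and the gene farthest above it had a lower fold of 681.

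At the bound of the rule, AT2G44380, a C1 domain gene, was just inside with a lower fold of 4.04, followed by HDA18 (4.15) and AT2G21640 (4.18), which RefSeq describes as a marker of the oxidative stress response. Just outside were AT2G10920 (3.98), AT2G45460 (3.95) and AT1G13550 (3.95). AT2G45460, a gene on the DNA damage list used below, had 11.99 TPM in hyp/c-1, 11.8 TPM in hyp/hyp and 2.97 TPM in WT, so genes on either side of the bound differed little.

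The highest lower fold was that of AT5G29560 (chromosome 5, 11190414 to 11191967), a caleosin-related gene. Caleosins are calcium-binding proteins of lipid droplets. AT5G29560 had 11.6, 10.4 and 9.33 TPM across hyp/c-1, 18.6, 18.3 and 17.0 TPM across hyp/hyp, and 0, 0 and 0.0460 TPM across WT. The mutants did not overlap, with every hyp/hyp library above every hyp/c-1 library, and WT held 1 read in all. Its pooled reads, 762 in hyp/c-1 and 1039 in hyp/hyp, gave ratios to WT of 734 (131 to 29017) and 1249 (224 to 49389). AT4G25330, which encodes a SAWADEE protein, had 12.3, 11.4 and 11.6 TPM in the 3 hyp/c-1 libraries, 13.5, 12.9 and 13.4 TPM in the 3 hyp/hyp libraries, against 0, 0 and 0.0746 TPM in WT. The SAWADEE domain is known from proteins that read methylated histone H3 in RNA-directed DNA methylation. All 6 mutant libraries of AT4G25330 stood within 11.4 to 13.5 TPM, beside 1 read in WT, at pooled ratios of 506 (90.5 to 20042) in hyp/c-1 and 571 (102 to 22605) in hyp/hyp.

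AT1G32570, an uncharacterized gene with 5 WT reads, had 44.0, 32.2 and 31.0 TPM in the hyp/c-1 libraries, 36.7, 44.7 and 49.7 TPM in those of hyp/hyp, and 0.0790, 0.0849 and 0.270 TPM in WT. The mutants overlapped, and the means were 247-fold over WT in hyp/c-1 and 302-fold in hyp/hyp. Without WT replicate 3 the lower of these folds was 436. DRP4C, a dynamin-related GTPase gene, had 10.7, 7.63 and 5.86 TPM across hyp/c-1, 10.9, 10.4 and 13.6 TPM across hyp/hyp, and 0.0525, 0 and 0.0600 TPM across WT. Its 4 WT reads leave a wide interval, with a pooled ratio of 221 (85.8 to 811) in hyp/c-1 and 314 (122 to 1153) in hyp/hyp. TIF3C2, for a subunit of translation initiation factor eIF3, had 1.95 to 3.01 TPM over the 6 mutant libraries and 2 WT reads, at pooled ratios of 149 (40.8 to 1234) in hyp/c-1 and 130.5 (35.7 to 1084) in hyp/hyp. AT3G02810, a protein kinase gene, had 1.43 to 2.61 TPM in mutant libraries and 1 WT read, at ratios of 286 (50.9 to 11333) in hyp/c-1 and 221 (39.2 to 8785) in hyp/hyp. AT5G35050, of unknown function, had 2.84 to 6.11 TPM in mutant libraries and 1 WT read, at ratios of 155 (27.4 to 6160) in hyp/c-1 and 147 (25.8 to 5841) in hyp/hyp. Of the 12 genes with the highest lower folds, 8 had 3 or fewer WT reads.

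**Figure D2:**
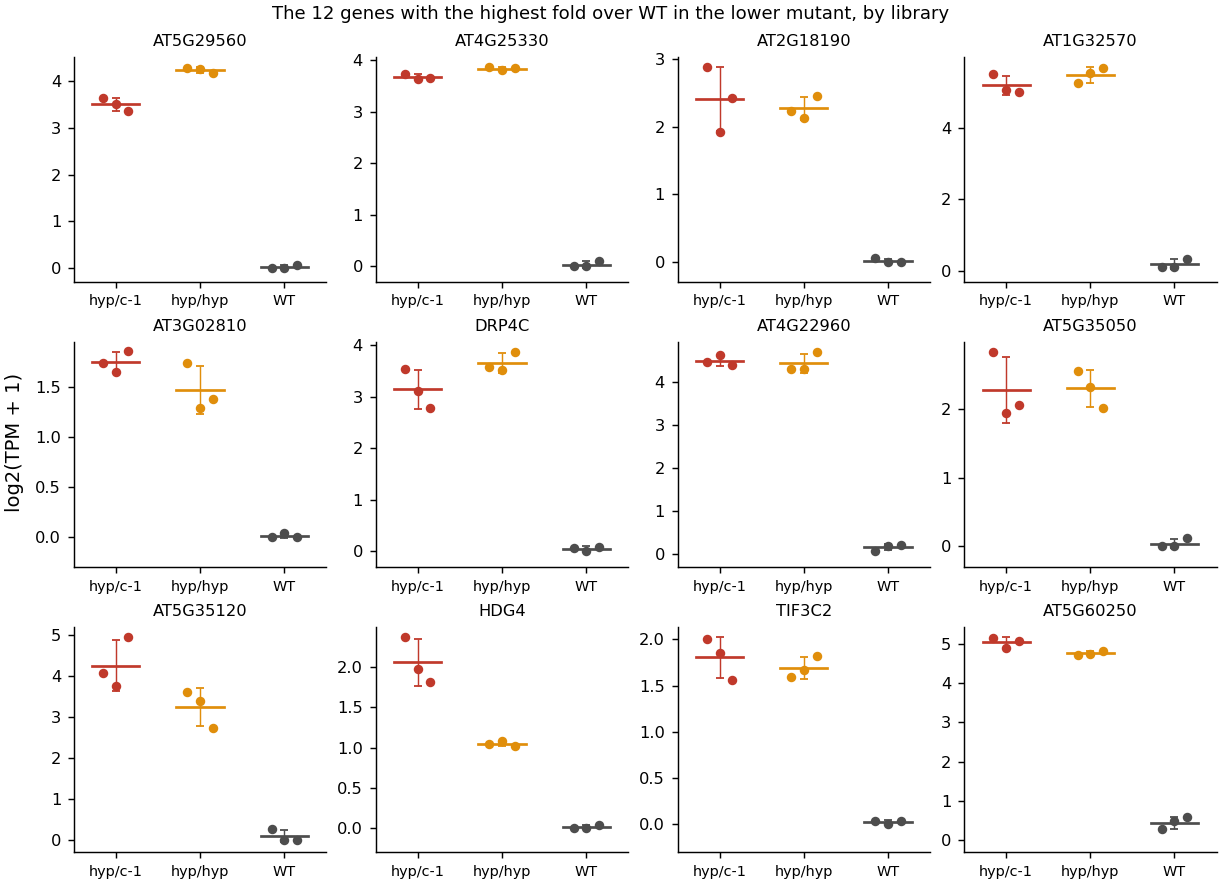
Expression as log2(TPM + 1) of the 12 genes with the highest lower folds, 1 panel per gene with its own vertical axis; points are the 3 libraries of hyp/c-1 (red), hyp/hyp (orange) and WT (grey), lines the means and bars 1 SD. Every mutant library lies far above every WT library, and the mutants separate in some panels, such as AT5G29560, where hyp/hyp is higher, and HDG4, where hyp/c-1 is higher.

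Of the 129 genes, 7 were on a list of 60 DNA damage response genes, beside the listed genes left out by name. They were AT4G22960, AT5G60250, NAC103, AT3G45730, TK1a, GEX1 and AHP2. AT4G22960, for a FAM63A-like protein, had 21.3, 23.7 and 20.2 TPM in the 3 hyp/c-1 libraries, 18.9, 18.7 and 25.03 TPM in the 3 hyp/hyp libraries, against 0.0559, 0.140 and 0.149 TPM in WT. Its mean was 189-fold over WT in hyp/c-1 and 182-fold in hyp/hyp. AT5G60250, for a RING-type zinc finger protein, had 34.5, 28.5 and 32.9 TPM in the hyp/c-1 libraries, 25.3, 25.8 and 27.2 TPM in those of hyp/hyp, and 0.216, 0.393 and 0.494 TPM in WT. NAC103, a NAC transcription factor gene also known from the unfolded protein response, had 6.26, 7.23 and 5.13 TPM across hyp/c-1, 4.04, 5.74 and 3.83 TPM across hyp/hyp, and 0.375, 0.144 and 0.367 TPM across WT. In AT5G60250 the hyp/c-1 libraries all lay above those of hyp/hyp, while in AT4G22960 and NAC103 the mutants overlapped.

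The other 4 were expressed in WT too. TK1a, a thymidine kinase that salvages a DNA building block, had 161, 157 and 134 TPM in the 3 hyp/c-1 libraries, 158, 144 and 149 TPM in the 3 hyp/hyp libraries, against 24.4, 26.4 and 22.9 TPM in WT. Its highest mutant library was only 1.205 times its lowest, among the 4 narrowest ranges of the 129 genes. AT3G45730, uncharacterized, reached 198 to 281 TPM in hyp/c-1, 280 to 354 TPM in hyp/hyp and 30.0 to 34.1 TPM in WT. AHP2, also called HOP2 and known for homologous pairing in meiosis, averaged 4.62 ± 0.755 TPM in hyp/c-1, 4.89 ± 0.634 TPM in hyp/hyp and 0.920 ± 0.0302 TPM in WT (SD, n = 3 each). GEX1, a gamete-expressed nuclear envelope protein, averaged 9.95 ± 1.59 TPM in hyp/c-1, 9.08 ± 1.30 TPM in hyp/hyp and 1.65 ± 0.109 TPM in WT.

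Over the whole DNA damage list, 27 of the 55 genes tested were called higher than WT in hyp/c-1 and 26 in hyp/hyp, where a call means an adjusted p under 0.05 in limma and a difference of at least 1 on the log2(TPM + 1) scale. Among all 17694 genes tested, 2.64% (hyp/c-1) and 2.37% (hyp/hyp) were called higher, and 0.588% (hyp/c-1) and 0.503% (hyp/hyp) lower. No listed gene was called lower in limma, with 4 lower at an unadjusted p under 0.05 in each mutant and 0 called lower with limma voom. The count takes in the members, chosen by their fold over WT, and loci left out by name, most of which met the same rule. For genes that met the rule, a call was close to fixed in advance. Outside the members and those loci, the listed genes called higher in both mutants were PARP1, PARG2, POLD4, RAD17, AGO2, TRFL3 and AT2G45460. Listed genes not called in either mutant included ATM, BARD1, RAD50, MRE11, KU70 and KU80, so the rise did not extend over the whole list. The list was put together with earlier results of these libraries known, and its count is not independent evidence. Between the mutants limma called 0 listed genes, with 5 higher and 3 lower in hyp/c-1 at an unadjusted p under 0.05 and 0 called with voom, and the median difference was 0.01.

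AAA-ATPases, a class of ATP-driven protein machines, were encoded by 4 of the 129 genes, with lower folds of 4.28 and more. AT2G18190 (chromosome 2, 7913955 to 7915872) had 6.36, 2.81 and 4.39 TPM in the hyp/c-1 libraries, 3.72, 3.36 and 4.50 TPM in those of hyp/hyp, and 0.0326, 0 and 0 TPM in WT. Its 1 WT read gave pooled ratios of 403 (72.0 to 15972) in hyp/c-1 and 335 (59.7 to 13297) in hyp/hyp. AT4G05380 had 4.69, 2.54 and 3.51 TPM across hyp/c-1, 1.40, 1.80 and 1.91 TPM across hyp/hyp, and 0.204, 0.125 and 0.0666 TPM across WT. AATP1 had 2.51, 3.33 and 4.20 TPM in the 3 hyp/c-1 libraries, 1.96, 1.28 and 1.30 TPM in the 3 hyp/hyp libraries, against 0.236, 0.217 and 0.384 TPM in WT. The hyp/c-1 libraries of AT4G05380 and AATP1 lay wholly above those of hyp/hyp. AT3G28580 overlapped between the mutants, with 15.9, 11.8 and 10.3 TPM in the hyp/c-1 libraries, 12.3, 15.4 and 30.4 TPM in those of hyp/hyp, and 2.16, 3.15 and 3.58 TPM in WT, its highest value being hyp/hyp replicate 3.

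The letters of the SOG1 site, CTT, any 7 bases and AAG, which read the same on both strands, were searched in the 500 bases before each annotated gene start of the RefSeq TAIR10.1 annotation. They occurred in 33 of the 129 genes (25.6%) and in 17.3% of the 17613 tested genes with an annotated start. They were present before all 4 AAA-ATPase genes, before 0 of the 7 genes on the DNA damage list, and before 7 of 15 of the loci left out by name (46.7%). They were also present before 0 of the 7 cysteine-rich receptor-like kinase genes described below. The sites of the 4 AAA-ATPase genes are shown because every gene of this role group had one. The role groups were formed after the values were seen, and within 250 bases 2 of these 4 genes had the letters. Each line gives TAIR10.1 coordinates and the sequence read toward the gene, with the fixed letters CTT and AAG in capitals.
AT2G18190 site 1, chr2:7916130-7916166, minus strand: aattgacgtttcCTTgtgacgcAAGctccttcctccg
AT2G18190 site 2, chr2:7916114-7916150, minus strand: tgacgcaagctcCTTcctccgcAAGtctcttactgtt
AT4G05380 site, chr4:2735992-2736028, plus strand: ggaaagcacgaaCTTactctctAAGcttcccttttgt
AT3G28580 site, chr3:10715365-10715401, plus strand: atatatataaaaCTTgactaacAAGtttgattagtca
AATP1 site 1, chr5:16022352-16022388, minus strand: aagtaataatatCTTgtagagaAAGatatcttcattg
AATP1 site 2, chr5:16022244-16022280, minus strand: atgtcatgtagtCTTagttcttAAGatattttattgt
AATP1 site 3, chr5:16022207-16022243, minus strand: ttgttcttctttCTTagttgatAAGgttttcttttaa

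These letters began 105 bases before the start of AT4G05380, 220 before AT3G28580, 282 and 266 before AT2G18190, and 460, 352 and 315 before AATP1. The site of AT3G28580 overlaps the W-box core TTGAC, the letters that WRKY factors bind, and the second AATP1 site overlaps the clock's evening element AAAATATCT on the other strand. A single site lay 193 bases before AT5G29560 and another 470 bases before SDC, a silencing target described below. AT1G52315, annotated as a regulator of Vps4 activity, had 4 sites, the most of any gene here together with AT2G21640. They form a repeated pair, shown because the bases between CTT and AAG recur exactly.
AT1G52315 site 1, chr1:19480623-19480659, plus strand: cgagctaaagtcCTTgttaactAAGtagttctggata
AT1G52315 site 2, chr1:19480656-19480692, plus strand: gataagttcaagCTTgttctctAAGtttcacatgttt
AT1G52315 site 3, chr1:19480873-19480909, plus strand: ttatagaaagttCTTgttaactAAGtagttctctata
AT1G52315 site 4, chr1:19480906-19480942, plus strand: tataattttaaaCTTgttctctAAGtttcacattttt

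AT1G52315 had 7.68, 7.92 and 7.41 TPM across hyp/c-1, 6.17, 7.97 and 7.42 TPM across hyp/hyp, and 1.52, 1.59 and 1.45 TPM across WT. The other letters searched were found in shares close to those of all genes tested. The evening element lay before 5 of the 129 genes (3.88%, against 4.68%), the W-box core before 88 (68.2%, against 66.9%) and the E2F letters TTTCCCGC before 2 (1.55%, against 0.994%). A match in letters does not show binding.

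Genes linked to silencing and chromatin made up 6 of the 129, counting AT4G25330 above and taking in SDC and QQS, which respond to DNA methylation. SDC, which encodes an F-box protein and is kept silent in wild type by DNA methylation at repeats in its promoter, had 1.258, 1.85 and 1.67 TPM in the 3 hyp/c-1 libraries, 1.78, 1.45 and 0.828 TPM in the 3 hyp/hyp libraries, against 0.0326, 0 and 0.0372 TPM in WT. With 2 WT reads, its pooled ratio to WT was 67.4 (18.3 to 562) in hyp/c-1 and 58.3 (15.7 to 488) in hyp/hyp. QQS, a starch-related orphan gene known to vary with DNA methylation, had 54.1, 47.8 and 68.3 TPM in the hyp/c-1 libraries, 51.7, 56.7 and 53.3 TPM in those of hyp/hyp, and 10.02, 13.96 and 10.7 TPM in WT. Both are on a list of 5 genes that report on DNA methylation, of which 4 were tested; ROS1 and IBM1, the other genes tested, were not called against WT in either mutant.

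chr31, a chromatin remodeler gene also known as CLSY3 that helps recruit RNA polymerase IV to make silencing RNAs, had 2.70, 2.48 and 2.40 TPM across hyp/c-1, 1.99, 1.97 and 1.98 TPM across hyp/hyp, and 0.163, 0.162 and 0.143 TPM across WT. Its replicates were tight and the mutants did not overlap, at 16.2-fold over WT in hyp/c-1 and 12.7-fold in hyp/hyp. VIM4, of a family of methylcytosine-binding proteins, averaged 4.82 ± 1.97 TPM in hyp/c-1, 4.46 ± 0.877 TPM in hyp/hyp and 0.172 ± 0.111 TPM in WT. Since 78.2% of its 50-base stretches occur elsewhere in the genome, how its reads were shared with its near copy is uncertain. HDA18, a histone deacetylase, had 6.61, 6.03 and 5.94 TPM in the 3 hyp/c-1 libraries, 7.37, 7.32 and 7.96 TPM in the 3 hyp/hyp libraries, against 1.33, 1.41 and 1.74 TPM in WT.

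Transcription factor genes formed a group of 12, each gene being placed in 1 group, so that NAC103 and CCA1 stand elsewhere. Their lower folds were 4.26 and more, and 4 of them belong to the MADS-box family, best known for flowering and flower organs. AT5G35120, a MADS-box gene of 324 bp, had 15.8, 12.3 and 29.6 TPM in the hyp/c-1 libraries, 11.2, 9.49 and 5.61 TPM in those of hyp/hyp, and 0.193, 0 and 0 TPM in WT. Its 1 WT read gave pooled ratios of 277 (49.4 to 10990) in hyp/c-1 and 127 (22.4 to 5081) in hyp/hyp. AT1G59930 had 44.8, 59.5 and 63.8 TPM across hyp/c-1, 29.6, 28.3 and 21.2 TPM across hyp/hyp, and 2.75, 3.40 and 3.37 TPM across WT. AGL19, an activator of flowering kept repressed by H3K27 trimethylation, had 2.89, 2.35 and 1.78 TPM in the 3 hyp/c-1 libraries, 0.905, 0.949 and 1.16 TPM in the 3 hyp/hyp libraries, against 0.120, 0.225 and 0.359 TPM in WT. In these 3 genes every hyp/c-1 library lay above every hyp/hyp library. The last, AT3G12510, overlapped between the mutants at 14.4 to 19.3 TPM in hyp/c-1, beside 14.7 to 16.1 TPM in hyp/hyp, against 3.46 to 3.85 TPM in WT.

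HDG4, a homeodomain gene of the class that shapes the epidermis, had 4.20, 2.95 and 2.53 TPM in the hyp/c-1 libraries, 1.06, 1.11 and 1.02 TPM in those of hyp/hyp, and 0, 0 and 0.0236 TPM in WT. Every hyp/c-1 library was above every hyp/hyp library, and 1 read was seen in WT, giving pooled ratios to WT of 450 (80.3 to 17798) in hyp/c-1 and 144 (25.4 to 5746) in hyp/hyp. WRKY50, of the WRKY family of defence regulators, was even across the mutants, at 18.3 to 19.8 TPM in hyp/c-1, beside 18.5 to 24.6 TPM in hyp/hyp, against 3.31 to 4.54 TPM in WT. BBX29, a B-box zinc finger gene, was uneven, with 2.62, 1.94 and 7.31 TPM across hyp/c-1, 2.54, 1.44 and 3.68 TPM across hyp/hyp, and 0.355, 0.272 and 0.752 TPM across WT, replicate 3 being the highest within each genotype.

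A pair of circadian clock genes 10411 bp apart on chromosome 2 were both among the 129. CCA1, a MYB-related repressor of the central clock loop that peaks near dawn, had 13.3, 13.7 and 19.96 TPM in the 3 hyp/c-1 libraries, 10.9, 9.67 and 6.29 TPM in the 3 hyp/hyp libraries, against 1.21, 0.992 and 2.26 TPM in WT. PRR9, a pseudo-response regulator that peaks in the morning and represses CCA1, had 10.3, 6.19 and 14.7 TPM in the hyp/c-1 libraries, 6.77, 5.24 and 4.89 TPM in those of hyp/hyp, and 1.05, 1.15 and 1.58 TPM in WT. CCA1 did not overlap between the mutants while PRR9 did. Both were highest in hyp/c-1 replicate 3 and lowest among mutant libraries in hyp/hyp replicate 3. Of the 50-base stretches of PRR9, 31.3% also occur elsewhere.

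Among cell-surface genes, 7 of the 129 encoded cysteine-rich receptor-like kinases (CRKs), membrane kinases known for induction by salicylic acid, pathogens and reactive oxygen, and their lower folds stood close together, from 4.18 to 6.07. CRK36 had 16.4, 14.8 and 13.3 TPM across hyp/c-1, 14.5, 15.9 and 30.8 TPM across hyp/hyp, and 2.95, 3.76 and 3.92 TPM across WT. CRK7 had 18.7, 18.1 and 14.8 TPM in the 3 hyp/c-1 libraries, 12.1, 17.4 and 28.5 TPM in the 3 hyp/hyp libraries, against 2.90, 4.40 and 5.03 TPM in WT. CRK37 was the most even of the 7, with 5.99, 5.42 and 6.35 TPM in the hyp/c-1 libraries, 4.45, 5.68 and 6.18 TPM in those of hyp/hyp, and 0.932, 0.606 and 1.15 TPM in WT. CRK8, CRK23, CRK27 and CRK38 ranged over the mutant libraries from 2.58 TPM (CRK38) to 11.0 TPM (CRK23), and over the WT libraries from 0.447 TPM (CRK38) to 1.71 TPM (CRK23). CRK36, CRK37 and CRK38 are neighbours on chromosome 4, as are CRK7 and CRK8, and 20.1% of the 50-base stretches of CRK8 occur elsewhere. The W-box core lay before all 7, as before 66.9% of all genes tested.

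The libraries of hyp/hyp were uneven in these kinases. Of the 7 CRKs, 6 were highest in hyp/hyp replicate 3, and 4 were lowest in hyp/c-1 replicate 3. In hyp/hyp replicate 3 the median CRK stood 0.54 above its mean over the 6 mutant libraries on the log2(TPM + 1) scale. Of the other 15 receptor, kinase and resistance genes, 10 were highest in hyp/hyp replicate 3. Over all genes tested, 37.1% were highest in that library and 40.0% lowest in hyp/c-1 replicate 3, so both libraries stood apart in many genes. Their part in the CRK values was not tested.

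**Figure D3:**
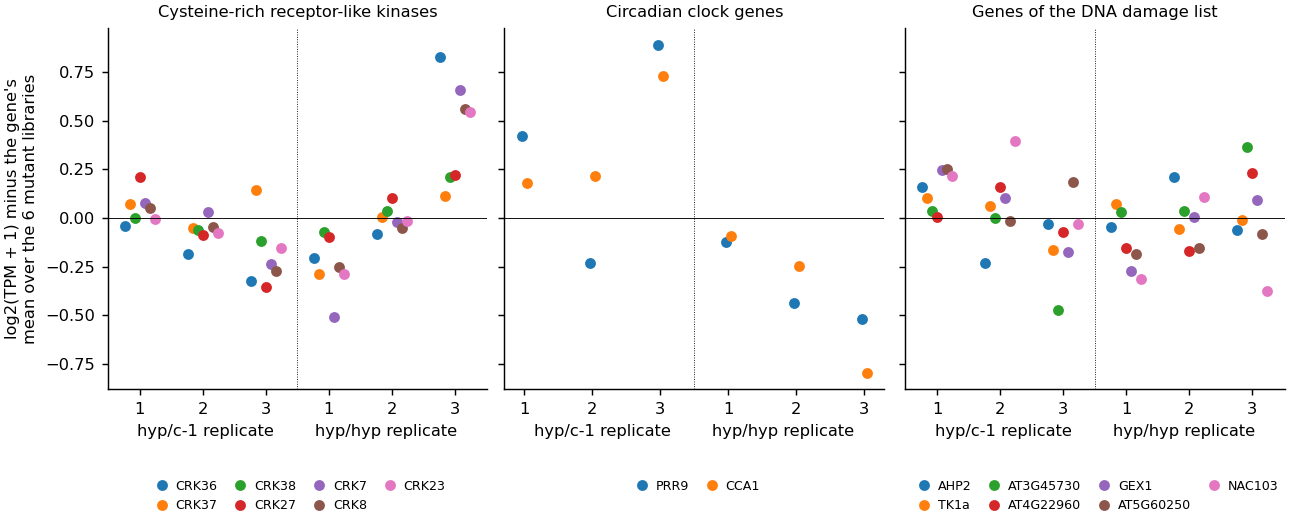
Deviation of each mutant library from the gene's mean over the 6 mutant libraries, on the log2(TPM + 1) scale, for 7 CRKs, 2 clock genes and 7 genes of the DNA damage list; each colour in a panel is 1 gene, and the dotted line separates hyp/c-1 (left) from hyp/hyp (right). In hyp/hyp replicate 3 all CRKs lie above 0 and both clock genes below it, and in hyp/c-1 replicate 3 both clock genes stand at their highest.

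Among the other receptor, kinase and resistance genes, the oxidative burst kinase AGC2-1 had 4.87, 5.84 and 6.07 TPM across hyp/c-1, 7.09, 7.91 and 23.0 TPM across hyp/hyp, and 0.873, 0.675 and 0.877 TPM across WT. WAK3, a kinase bound to the cell wall, had 29.0, 25.1 and 21.2 TPM in the 3 hyp/c-1 libraries, 23.98, 29.0 and 51.2 TPM in the 3 hyp/hyp libraries, against 4.85, 5.60 and 6.25 TPM in WT. Both were highest in hyp/hyp replicate 3. SIP4, a protein kinase that pairs with calcium sensors, was far steadier, at 108, 110 and 102 TPM in the hyp/c-1 libraries, 104, 96.8 and 109 TPM in those of hyp/hyp, and 17.0, 12.6 and 15.9 TPM in WT. CNGC19, a calcium-permeable channel, had 2.18 to 2.33 TPM in hyp/c-1, 1.996 to 2.84 TPM in hyp/hyp and 0.266 to 0.362 TPM in WT. PNP-A, a secreted signalling peptide, had 27.9 to 34.7 TPM in hyp/c-1, 20.9 to 38.4 TPM in hyp/hyp and 5.46 to 8.39 TPM in WT. None of the 19 genes of a list of salicylic acid defence was among the 129. Only 0.813% of the genes eligible for the fold rule met it, so 0 members in this or the other short lists below says little. On that list, 5 of the 18 genes tested were called higher than WT in hyp/c-1 and 2 in hyp/hyp, beside 2.64% and 2.37% of all genes tested. With no minimum difference, 7 had a limma adjusted p under 0.05 in each mutant. The median difference from WT over the list was 0.55 in hyp/c-1 and 0.53 in hyp/hyp. Lists for cold and abscisic acid response (15 tested) and for wax, cutin and suberin (11 tested) also held none of the 129 genes, although a locus left out by name is on the wax list and is the 1 gene that rose there in each mutant. Of the cold list, 1 gene rose and 1 fell in hyp/c-1, and 2 rose in hyp/hyp. Of the wax list, 1 rose and 1 fell in hyp/c-1, while in hyp/hyp 1 rose and 4 fell. Of all genes tested, 0.588% (hyp/c-1) and 0.503% (hyp/hyp) were called lower. At an unadjusted p under 0.05 in limma, 7 wax genes were lower in hyp/c-1 and 10 in hyp/hyp, with 1 higher in each. The wax list's median difference from WT was −0.49 in hyp/c-1 and −0.75 in hyp/hyp, and 0 wax genes were called between the mutants. By the same unadjusted p, 6 cold genes were lower and 4 higher in hyp/c-1, and 2 lower and 6 higher in hyp/hyp.

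A group of 5 genes had roles in ubiquitin-linked protein turnover, beside SDC and AT5G60250, which stand in groups above. MEE66, an F-box gene, had 6.18, 6.23 and 7.65 TPM across hyp/c-1, 4.70, 4.56 and 4.99 TPM across hyp/hyp, and 0.680, 0.817 and 0.639 TPM across WT. AT2G18600, for a ubiquitin-conjugating enzyme, had 15.5, 15.7 and 15.4 TPM in the 3 hyp/c-1 libraries, 11.4, 11.8 and 12.7 TPM in the 3 hyp/hyp libraries, against 1.29, 1.42 and 1.43 TPM in WT. Both lay wholly higher in hyp/c-1 than in hyp/hyp. BIP3, an endoplasmic reticulum chaperone of the HSP70 family induced by unfolded proteins, had 9.64, 10.5 and 12.4 TPM in the hyp/c-1 libraries, 4.82, 6.03 and 5.58 TPM in those of hyp/hyp, and 0.879, 0.817 and 0.950 TPM in WT. HVA22G, of a family of stress-induced membrane proteins, had 6.66, 7.96 and 8.46 TPM across hyp/c-1, 4.59, 4.66 and 4.03 TPM across hyp/hyp, and 0.348, 0.250 and 0.221 TPM across WT. BIP3 and HVA22G also showed no overlap between the mutants. CP1, a calcium-binding protein gene, was about even between the mutants but uneven within them, at 66.0, 67.7 and 123 TPM in the 3 hyp/c-1 libraries, 66.7, 68.6 and 133 TPM in the 3 hyp/hyp libraries, against 6.14, 8.17 and 7.36 TPM in WT.

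Within the mutants the highest of the 6 libraries was a median of 1.90 times the lowest, under 2 in 72 genes and at least 3 in 23. AT2G15020, uncharacterized, had the widest range, 22.3 times, with 2.87, 3.69 and 21.2 TPM in the hyp/c-1 libraries, 1.88, 0.950 and 0.980 TPM in those of hyp/hyp, and 0.180, 0.193 and 0.445 TPM in WT. A single library, hyp/c-1 replicate 3, sets its hyp/c-1 mean. AT2G13547, also uncharacterized, had 2.74, 1.33 and 0.832 TPM across hyp/c-1, 1.39, 1.69 and 10.8 TPM across hyp/hyp, and 0, 0.0819 and 0 TPM across WT, with hyp/hyp replicate 3 far above the rest. Its 1 WT read gave pooled ratios of 63.5 (11.0 to 2548) in hyp/c-1 and 177 (31.2 to 7028) in hyp/hyp. LpxC1, for a lipid A-type deacetylase, had 0.574, 8.36 and 3.23 TPM in the 3 hyp/c-1 libraries, 0.817, 0.790 and 5.88 TPM in the 3 hyp/hyp libraries, against 0.436, 0.435 and 0.533 TPM in WT, so 3 of its 6 mutant libraries were close to the WT range. All of its 50-base stretches occur elsewhere (100%), and its values are uncertain. AT3G58270, a PEARLI 4 family gene, was the steadiest, with 34.4 to 38.6 TPM in hyp/c-1, 36.4 to 37.5 TPM in hyp/hyp and 3.69 to 4.42 TPM in WT.

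Between hyp/c-1 and hyp/hyp, the pair whose difference the study addresses, expression was tested with limma on log2(TPM + 1) over all 17694 genes. Of the 129 genes, 2 were called, both higher in hyp/c-1, where 0.52% of all genes tested were called, 0.226% higher and 0.294% lower. AT1G59930 differed by 1.06 (SE 0.16, adjusted p = 0.0246), with hyp/c-1 higher in 3 of 3 libraries, though 49.4% of its 50-base stretches also occur elsewhere, the neighbouring gene AT1G59920 included. HDG4 differed by 1.01 (SE 0.15, adjusted p = 0.0238), likewise higher in 3 of 3 libraries. Both calls were lost when WT replicate 1, hyp/hyp replicate 2 or hyp/hyp replicate 3 was left out, and when only the mutants were fitted. HDG4 also lost its call without hyp/c-1 replicate 1 (difference 0.85), and AT1G59930 without hyp/c-1 replicate 3 (difference 0.96).

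At an adjusted p under 0.05 with no minimum difference, 12 of the 129 genes passed, as did 2.84% of all genes tested. Of these, 11 were higher in hyp/c-1. Beside the called pair they were the kinase gene AT5G11410 (difference 0.93), BIP3 (0.87), AATP1 (0.78), AT5G45990, for a crooked neck-like protein (0.73), AGL19 (0.73), HVA22G (0.68), AT4G05475 (0.67), the lipase gene AT1G20120 (0.60) and the zinc finger gene AT1G68200 (0.50). The remaining gene, AT5G29560, was lower in hyp/c-1 (difference −0.73, limma adjusted p = 0.0191). BIP3 had the same adjusted p, 0.0191, and the other 10 fell between 0.0238 and 0.0469. None of the 12 passed when only the mutants were fitted (lowest adjusted p 0.0944), or without hyp/hyp replicate 2 (0.0871) or hyp/hyp replicate 3 (0.0542). With another library left out, 2 (WT replicate 1) to 12 (hyp/c-1 replicate 1) of them passed.

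At an unadjusted p under 0.05, 32 of the 129 genes were higher and 6 lower in hyp/c-1, together 38, beside 25.1% of all genes tested in either direction. By library, 36 of the 129 genes did not overlap between the mutants, as in 23.7% of all genes tested. Of the 129 genes, 29 lay wholly higher in hyp/c-1, against 11.6% of all genes tested, and 7 wholly lower. Among all 17694 genes tested, 4202 did not overlap, and 2055 of these lay wholly higher in hyp/c-1. A difference above 0 was found in 76 of the 129 genes and in 39.5% of all genes tested. The median difference was 0.065 over the 129 genes and −0.058 over all genes tested. Under median-of-ratios scaling these were 0.122 and −0.0002, so that the gap between them stayed similar. The means of the mutants were within 1.5-fold of each other in 99 genes, at least 1.5-fold higher in hyp/c-1 in 26 and at least 1.5-fold higher in hyp/hyp in 4. No share over all genes tested is given for these ratios, so the split of 26 and 4 stands without a background. The photosynthesis genes named above summed higher in every hyp/c-1 library than in any hyp/hyp library, and their part in these counts was not tested.

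**Figure D4:**
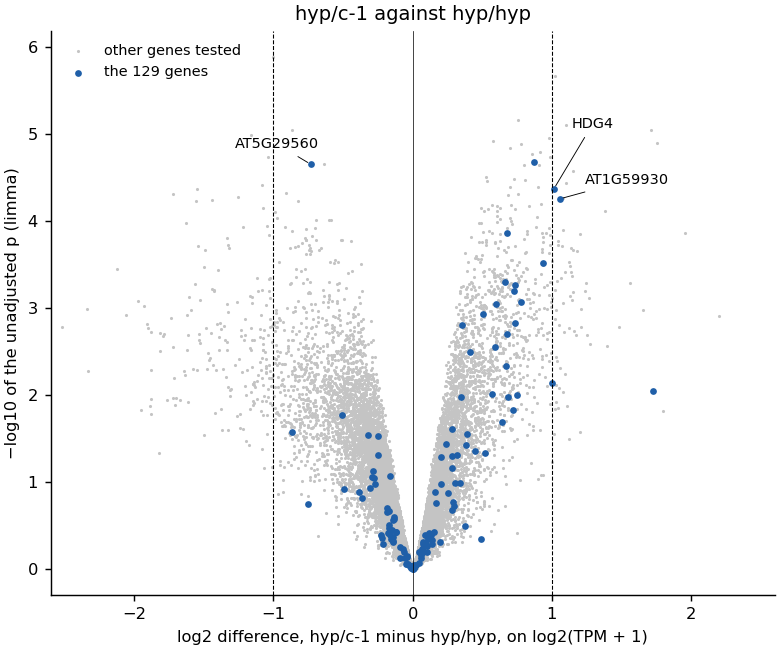
Difference between the mutants, hyp/c-1 minus hyp/hyp, on the log2(TPM + 1) scale (horizontal) against −log10 of the unadjusted p from limma (vertical), with the 129 genes in blue and the other genes tested in grey. Dashed lines mark differences of −1 and 1; the called genes HDG4 (1.01) and AT1G59930 (1.06) and the gene AT5G29560 (−0.73) are named, and more blue points lie to the right of 0 than to the left.

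The 129 genes were spread over all 5 chromosomes, from 16.3% of them on chromosome 4 to 24.03% on chromosome 1, but a subset lay where genes are sparse. In 18 of the 129 genes (13.95%) there were 20 or fewer other protein-coding genes within 100 kb, against 1.61% of the 17613 tested genes with annotation and 2.91% of all 27445 annotated genes of the table. Other genes had to average 1 TPM over the 9 libraries to be tested, while the 129 genes were kept whatever their mean. The median was 50 neighbours for the 129 genes and 55 for all genes tested. The 18 included AT5G29560, AT5G35050 and AT5G35120 on chromosome 5, QQS, and CYP705A13, a cytochrome P450 gene with 1.85 to 2.54 TPM in hyp/c-1, 1.31 to 2.05 TPM in hyp/hyp and 0.0331 to 0.113 TPM in WT. The genes were shorter than others, with a median span of 1915 bp against 2437 bp for genes tested and 2078 bp for all annotated genes of the table. Products described as uncharacterized or hypothetical made up 18.6% of them, 6.19% of genes tested and 10.7% of all annotated.

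**Figure D5:**
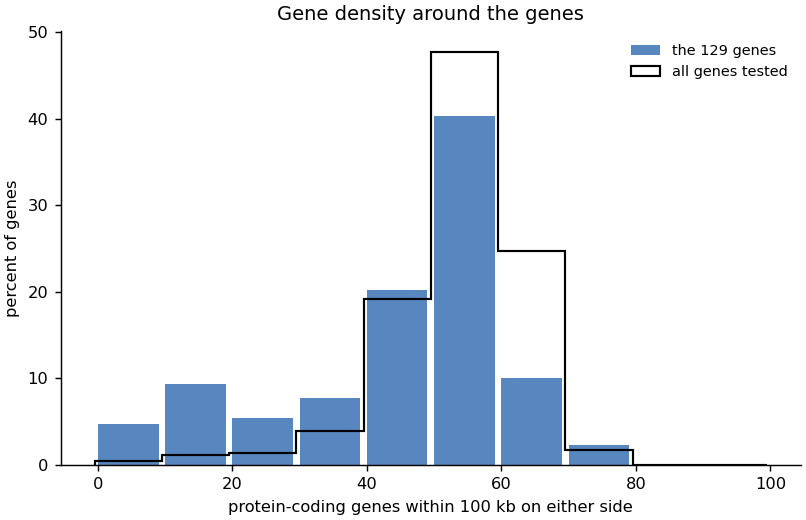
Percent of genes (vertical) by the number of protein-coding genes within 100 kb on either side (horizontal, bins of 10), for the 129 genes (blue bars) and for all genes tested (black outline). The blue bars exceed the outline in the sparse bins on the left, where 13.95% of the 129 genes and 1.61% of all tested have 20 or fewer neighbours.

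Some members were neighbours: 20 of the 129 genes lay within 20 kb of another, in 11 pairs. On chromosome 3, AT3G29633, AT3G29631 and AT3G29639 lie in 1 gene-poor stretch. AT3G29639, uncharacterized, had 36.2, 33.2 and 51.6 TPM in the hyp/c-1 libraries, 28.2, 30.2 and 16.8 TPM in those of hyp/hyp, and 0.670, 0.864 and 0.816 TPM in WT. AT3G29631, annotated as a nuclease, had 76.3, 115 and 128.6 TPM across hyp/c-1, 93.9, 76.8 and 52.3 TPM across hyp/hyp, and 10.8, 9.31 and 11.96 TPM across WT. AT3G29633 was lower in level, at 2.64 to 4.80 TPM in hyp/c-1, 3.43 to 4.53 TPM in hyp/hyp and 0.594 to 0.701 TPM in WT. AGL19 and AT4G22960 are 2015 bp apart and point away from each other, AT1G13530 and AT1G13540 are 333 bp apart, and AT1G32570 lies 3065 bp from AT1G32575, whose 6 mutant libraries held 11.4 to 16.7 TPM and WT 0.992 to 1.04 TPM. The remaining pairs were PNP-A with AT2G18600, the clock pair, the CRKs and HDA18 with AT5G61100. Since 26 of the 129 genes overlap another annotated gene and the counting is not stated to use strand, reads of those genes cannot be told from reads of their partners.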

How the data were processed

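RNA from leaves of 3 genotypes, 3 libraries each, was measured by RNA-seq. The authors deposited 1 table of TPM, with column headers that say gene counts although each column sums to 1000000. The submitters' processing notes name fastp 0.20.1, HISAT2 2.1.10, DESeq2 1.26.0 and TAIR10. A TPM divides reads by the span of the gene, introns included, so levels of intron-rich genes are understated. Whole reads were recovered for 99.98% of values under 2000 reads, within 0.02 of a read, and pooled read ratios and exact 95% intervals come from them.

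Genotype means of TPM chose the members. For tests, log2(TPM + 1) of 17694 genes (mean of at least 1 TPM, plus every member) was fitted over all 9 libraries with limma 3.58.1 in R 4.3.3, with 6 residual degrees of freedom, trended empirical Bayes and Benjamini-Hochberg adjustment. A call needed an adjusted p under 0.05 and a difference of at least 1. The procedure was tested on simulated data with normal errors, with known changes placed only in genes of higher level. That test does not cover the lower genes described here. Depth limits low genes, with the floor of 3 reads given in the text. Annotation, spans and sequences are those of RefSeq TAIR10.1, and 50-base stretches found elsewhere were counted in that genome.

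The members, the lists and the tests were chosen with earlier results of these data known. The rule for named genes took the 12 highest lower folds, the genes called between the mutants, the 4 widest and 4 narrowest ranges over mutant libraries, the genes at the bound, and members on the lists. Other genes were named, and roles given, after their values were seen. Alternatives covered pseudocount, filters, scaling, samples, replicate block, variance model, voom on recovered reads, the call rule and each library left out.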

Additional observations from a re-analysis of the deposited data

Results flagged for a closer look

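Between the mutants, 2 of the 129 genes differed by the test of the difference itself. HDG4 was higher in hyp/c-1 than in hyp/hyp by 1.01 on the log2(TPM + 1) scale, in 3 of 3 libraries, and AT1G59930 by 1.06, likewise in 3 of 3 libraries. Both calls were lost when only the mutants were fitted, and without WT replicate 1, hyp/hyp replicate 2 or hyp/hyp replicate 3. Of the 50-base stretches of AT1G59930, 49.4% also occur elsewhere in the genome.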

How the results depend on the processing

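Over the alternatives, the differences of the 12 genes with an adjusted p under 0.05 between the mutants reversed in 0 cases. Some settings, such as leaving out a WT library, keep the difference as it was, so it could not reverse there. By the call rule, which also needs a difference of 1, 12 cases lost the call and 5 gained it. All 12 losses were of HDG4 and AT1G59930, the only genes called in the main fit. By the adjusted p alone, 0 of the 12 genes passed with the 2 genotypes alone, with the replicate block, or without hyp/hyp replicate 2 or 3. HDG4 differed by 1.60 with voom. The median difference over the 129 genes, 0.065, moved by less than 0.0929, its spread between libraries, in all 18 alternatives run. That spread exceeds the median itself, so this check could hardly fail. Settings such as leaving out a WT library also leave the median unchanged by construction. With a library left out it was 0.019 to 0.131. The count of members was 78 at a 6-fold bound and 77 when every mutant library had to be 4 times every WT library, and 120 to 137 with a library left out. Members called between the mutants numbered 0 with the 2 genotypes alone (32 at an unadjusted p under 0.05 in limma), 5 with voom (BIP3, AT1G59930, HDG4, AGL19 and AT5G11410), 12 with no minimum difference, and 0 to 3 with a library left out: 0 without WT replicate 1, hyp/hyp replicate 2 or hyp/hyp replicate 3, and 1 (HDG4) without hyp/c-1 replicate 3. Over all genes, calls between the mutants numbered 92, with 34 at no minimum level, 0 with the 2 genotypes alone (3256 at an unadjusted p under 0.05), 502 with no minimum difference, and 1 to 323 with a library left out; the cause was not tested. Calls against WT numbered 861 for hyp/c-1 with voom, 3626 for hyp/c-1 and 3692 for hyp/hyp with no minimum difference, and 502 to 659 for hyp/c-1 and 400 to 667 for hyp/hyp with a library left out. Depth limits folds where WT held few reads: without 1 library the lower fold of AT5G29560 was 454 to 718.

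With the replicate number as a block, limma called 0 of the 129 genes and 0 of all genes between the mutants (34 and 3731 at an unadjusted p under 0.05, lowest adjusted p 0.0579). Deviations of same-numbered libraries correlated at −0.272 to 0.10 between the mutants, which gave no sign of pairing by number. With 3 libraries per genotype this is a weak check, and the labels do not say whether same-numbered libraries shared a batch. Windows of 250 and 1000 bases, chosen after seeing the data, held the SOG1 letters in 18 and 55 of the 129 genes (14% and 42.6%, against 8.84% and 32.7% of all genes tested). Of the 4 AAA-ATPase genes, 2 had the letters within 250 bases and 4 within 1000.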
